A study of Bos taurus with 37 samples.

Results

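The genes of the proteasome were followed in single bovine blastocysts and in the fibroblasts that served as nuclear donors. Every row of the expression table whose symbol began with PSMA, PSMB, PSMC, PSMD, PSME, PSMF or PSMG and a number was taken, with PSMD10 left out. This gave 49 rows of 22628, for 48 symbols, because PSMD13 fills 2 rows of the table. One of the symbols, PSMC3IP, carries the name of an interaction partner of PSMC3 and is not a proteasome subunit, so it is given apart.

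RNA was measured in 35 single blastocysts, each from 1 embryo and counted as 1 replicate, and in 1 library of donor fibroblasts per sex. There were 6 male and 6 female blastocysts from somatic cell nuclear transfer (SCNT-BLs), 6 male and 5 female from a sham procedure (sham NT-BLs), and 6 male and 6 female from in vitro fertilization (IVF-BLs). SCNT-BLs came from enucleated oocytes fused with a fibroblast cultured from the ear skin of an adult animal. The male and the female SCNT-BLs thus also differ in donor line. Sham NT-BLs were IVF zygotes that lost their polar body and some of the ooplasm beneath it, kept both pronuclei, and were then treated with ionomycin and DMAP. IVF-BLs developed from oocytes fertilized in vitro. The sex of IVF-BLs and sham NT-BLs was determined by PCR on embryo DNA. Male and female libraries were run on separate flow cells, so the 2 sexes were fitted apart and sex cannot be told apart from the run in a level that is set across them. The embryos within a group are separate embryos, but the labels do not say whether they share a collection day or parents. Values are FPKM (fragments per kilobase of transcript normalized to mapped fragments), which divide by length, so levels of different genes can be set side by side.

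The proteasome is the main protease of the cytosol and nucleus and degrades proteins that carry a ubiquitin chain. Its barrel-shaped core holds alpha subunits in the outer rings and beta subunits in the inner rings, and PSMB5, PSMB6 and PSMB7 carry the active sites. A regulatory particle caps the core: its base of ATPases unfolds the substrate and its lid removes the ubiquitin chain. In immune and interferon-treated cells, PSMB8, PSMB9 and PSMB10 replace the constitutive catalytic subunits, and PSME1 and PSME2 form an alternative cap. Early embryos are known to use the proteasome to clear proteins stored in the oocyte.

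Of the series as a whole, relative depth, read from the steps between the lowest values, ran from 0.369 to 1.45 times that of one library, and summed FPKM ran from 414105 to 601000. By this estimate, made from FPKM and not from reads, the sham libraries were shallower than the IVF libraries. They had 0.536 to 0.801 in males and 0.429 to 0.824 in females, against 0.779 to 1 and 0.871 to 1.45, with overlap in males. On the first principal component, which held 17.7% of the variance, all sham NT-BLs stood apart from the other blastocysts of their sex, and female SCNT-BL replicates 5 and 6 stood apart from their group on later components. The 11 trophectoderm markers summed to 38.7 and 43.6 FPKM in donors and to 1920 to 9760 FPKM in blastocysts, and the 6 markers of inner cell mass and epiblast to 0.617 and 1.58 FPKM in donors and 46.5 to 201 FPKM in blastocysts. The 10 fibroblast markers summed to 14800 and 6910 FPKM in donors and to 1340 to 7210 FPKM in blastocysts, so that the female donor lay within the range of the embryos. FN1, the fibronectin gene on that list, had 3732 and 506 FPKM in the male and female donor and 1336 to 7200 FPKM in blastocysts, whereas DCN, a fibroblast proteoglycan, had 226 and 241 FPKM in the donors and at most 0.971 FPKM in a blastocyst. The 7 immune and blood markers summed to 20.3 to 47.1 FPKM in male and 18.7 to 41.2 FPKM in female sham NT-BLs, against 15.5 to 27 FPKM in male and 5.72 to 15 FPKM in female IVF-BLs, with PTPRC, which marks leukocytes, at or near 0 throughout. Of these, LYZ, the lysozyme gene, had 15.2 to 40.3 FPKM in female sham NT-BLs and 1.24 to 4.13 FPKM in female IVF-BLs. In sham NT-BLs against IVF-BLs, limma called 1 trophectoderm, 1 inner cell mass and 1 primitive endoderm marker lower in males, beside 12.1% of all genes in either direction. In females 3 trophectoderm, 1 inner cell mass, 1 primitive endoderm and 1 immune marker were lower and 1 inner cell mass and 1 immune marker higher, beside 13.5%, and 1 immune marker had a higher sham effect in females than in males. In male SCNT-BLs against IVF-BLs, 1 trophectoderm and 1 primitive endoderm marker were higher and 2 trophectoderm markers lower, beside 6.98%. The part of depth and of cell type content in the results on members was not tested. In a whole embryo, fewer cells of a type and less RNA per cell cannot be told apart.

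Proteasome genes were abundant in every group. In 39 of the 49 rows no blastocyst was listed at 0, and the 10 others were PSMA8, PSMB8, PSMB9, PSMB10, PSMB11, PSMD6, the sparser row of PSMD13, PSME2, PSMG3 and PSMG4. A listed 0 is given as such and is not read as absence. Over the 31 constitutive subunits of the core, base and lid, the median level ranged from 43.2 FPKM in female SCNT-BLs to 103.2 FPKM in the male donor. Within a group the highest of these subunits exceeded the lowest by 27.3-fold in female SCNT-BLs and by up to 436-fold in male sham NT-BLs. The latter sets PSMC3 at 1009 FPKM against PSMD6 at 2.31 FPKM, a low gene listed at 0 in 1 embryo. The particle holds its subunits in fixed numbers, but these are levels of amplified RNA, and protein was not measured. By the median over embryos, PSMC3 was the most abundant of the 31 in 6 of the 8 groups, and PSMA3, PSMD6 or PSMB6 the least abundant in all 8.

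The 48 rows other than PSMC3IP summed to 2176 to 3113 FPKM in male SCNT-BLs, 3435 to 5368 FPKM in male sham NT-BLs and 2192 to 2883 FPKM in male IVF-BLs. Female SCNT-BLs summed to 1850 to 3150 FPKM, female sham NT-BLs to 3549 to 4369 FPKM and female IVF-BLs to 1998 to 2941 FPKM. In both sexes every sham NT-BL thus lay above every SCNT-BL and IVF-BL. Total FPKM was also higher in female sham NT-BLs (507831 to 554711) than in female IVF-BLs (414105 to 489827). The 48 rows held 0.7165% to 0.8932% of all FPKM in male sham NT-BLs. Male SCNT-BLs had 0.4259% to 0.6224% and male IVF-BLs 0.4575% to 0.5997%. In female sham NT-BLs, SCNT-BLs and IVF-BLs the share was 0.6494% to 0.809%, 0.4021% to 0.6119% and 0.4424% to 0.6417%, a narrow gap without overlap. PSMC3 made up a large part of the gap in summed FPKM. Without it the sums were 2887 to 3994 FPKM in male sham NT-BLs against 2040 to 2624 FPKM in male IVF-BLs, still with no overlap. In females they were 2698 to 3100 FPKM in sham NT-BLs and 1903 to 2744 FPKM in IVF-BLs, which overlap. The 2 donor libraries summed to 4626 FPKM (male) and 4654 FPKM (female).

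**Figure D1:**
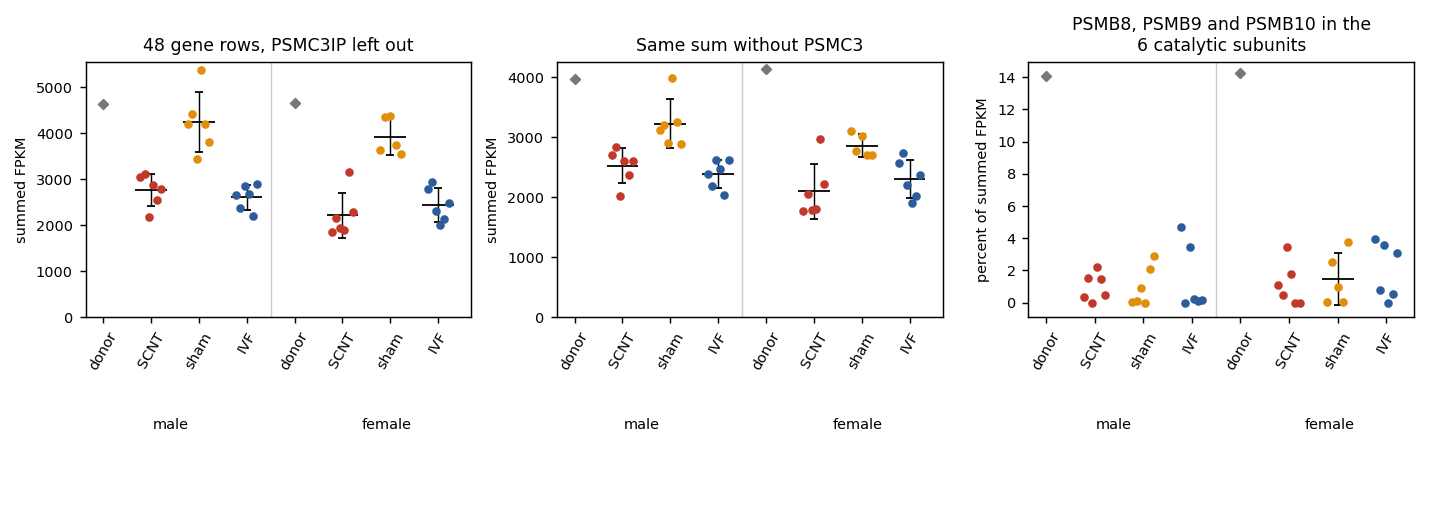
Summed FPKM of the 48 rows other than PSMC3IP (left), the same sum without PSMC3 (middle) and the percent of PSMB8, PSMB9 and PSMB10 in the summed FPKM of the 6 catalytic subunits (right), 1 point per library, with diamonds for the single donor libraries and bars for mean and SD where no library is at 0. Sham NT-BLs stand above SCNT-BLs and IVF-BLs in the left panel, and only the donors, at 14.1% and 14.2%, stand above 5% in the right panel.

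By the median, members varied less between the embryos of a group than all genes did, in every blastocyst group. The coefficient of variation had a median of 29.6% over the 46 members above 1 FPKM in male SCNT-BLs, beside 39.9% over all genes above 1 FPKM. It was 44.8% against 49.4% in male sham NT-BLs and 27.4% against 41.5% in male IVF-BLs. Female SCNT-BLs had 43% against 47.4%, female sham NT-BLs 39.3% against 42.6% and female IVF-BLs 33.9% against 42.7%. Higher genes vary less in such data, and members were not matched on level here. The highest coefficient of a single member in a group ran from 127% (PSMA8, female IVF-BLs) to 224% (PSMG4, female sham NT-BLs). PSMD2, a scaffold subunit of the base, was the steadiest member in IVF-BLs, with a coefficient of 7.88% in males and 6.46% in females.

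The comparisons within each sex were SCNT-BLs against IVF-BLs, sham NT-BLs against IVF-BLs and SCNT-BLs against sham NT-BLs. Sham NT-BLs also differ from SCNT-BLs in having been fertilized, and their libraries were shallower than those of IVF-BLs by the estimate above. Neither comparison with sham NT-BLs therefore isolates the manipulation or the transferred nucleus. An SCNT effect or sham effect is only the name of a difference from IVF-BLs. Differences are given as log2 differences on the scale of log2(FPKM + 1), which understates changes of low genes, and a member is called where the adjusted p of limma is under 0.05 over all genes tested. PSMB8 and PSMB11 were too low to be tested, which left 47 rows. The 3 comparisons of a sex share their samples in pairs, so their values are set side by side only.

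In male SCNT-BLs 5 members were called, with 8 under a filter at 1 FPKM and 3 in 1 fit of all 6 blastocyst groups. PSMA4, PSMD12 and PSME4 were higher than in male IVF-BLs, where 3.34% of all 14906 genes tested were higher, and PSMA7 and PSMD3 were lower, where 3.64% of all genes were. These are 5 of 47 rows (10.6%), beside 6.98% of all genes in either direction and 9.42% of those above 1 FPKM. Before adjustment, 11 members were higher and 10 lower at a limma p under 0.05, where 20.7% of all genes tested passed in either direction. The median log2 difference was 0.21 over the members and -0.01 over all genes. In female SCNT-BLs limma called 0 of 47 against female IVF-BLs, where the share over all genes was 0.321%, with 0.21% higher and 0.111% lower. At an unadjusted p under 0.05 there were 0 higher and 4 lower, namely PSMA6, PSMB9, PSMC2 and PSMD4, where 10.9% of all genes passed in either direction, and the median was -0.14 over the members and -0.04 over all genes. The difference of the SCNT effect between the sexes was itself tested: limma called 2 of 47 members, PSMA4 and PSMC2, beside 1.91% of all genes (1.06% with a higher and 0.849% with a lower effect in females), both with a lower SCNT effect in females. Before adjustment, 4 members had a higher and 11 a lower effect in females at a limma p under 0.05, where 15.2% of all genes tested passed. The median of this difference was -0.39 over the members and -0.02 over all genes.

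Sham NT-BLs differed from IVF-BLs at more subunits and in both directions. In males 8 rows were higher, beside 6.13% of all genes tested, and 5 lower, beside 5.96%. This is 27.7% of the members, beside 12.1% of all genes in either direction and 16.2% of those above 1 FPKM. In females the counts were again 8 higher, beside 7.03%, and 5 lower, beside 6.47%, where 13.5% of all genes were called in either direction and 18% of those above 1 FPKM. Shared by both sexes were PSMA6, PSMB5, PSMC3, PSMD11, PSMD12 and PSME2 as higher and PSMB1 and PSMB6 as lower, 8 of the 13 calls in each sex, and none went in opposite directions. Called in males only were PSMD1 and PSMD14 as higher and PSMB3, PSMD6 and PSMD9 as lower. Called in females only were PSMB2 and PSMF1 as higher and PSMD3, PSMD8 and PSME3 as lower. For none of these 10 did a difference of the sham effect between the sexes pass the test of limma (adjusted p from 0.171 to 0.846). That test called 1 member of 47, PSMB5, beside 1.22% of all genes (0.833% with a higher and 0.384% with a lower effect in females). The median log2 difference of the members was 0.16 in males and 0.02 in females, beside -0.02 and -0.09 over all genes.

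SCNT-BLs against sham NT-BLs gave 5 higher and 5 lower members in males, beside 5.67% higher, 6.13% lower and 11.8% in either direction among all genes tested. In females 4 were higher and 8 lower, beside 5.21% higher, 6.07% lower and 11.3% in either direction. With FPKM scaled to TPM the split in females was 5 higher and 6 lower, with a median over all genes of 0.18. PSMB1 and PSME3 were higher and PSMC3 and PSMD11 lower in both sexes, 4 of the 10 calls in males and 4 of the 12 in females. The median log2 difference was -0.04 in males and -0.36 in females over the members, beside 0.01 and 0.04 over all genes. Whether these effects differ between the sexes was not tested.

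The ranges of the embryos give a view that needs no model. Against male IVF-BLs, 2 members lay wholly above in male SCNT-BLs, beside 1.93% of all genes tested, and 0 wholly below, beside 2.33%. Female SCNT-BLs had 0 members wholly above female IVF-BLs and 0 below, beside 0.852% and 0.531%. In male sham NT-BLs 4 members lay wholly above male IVF-BLs, beside 3.35%, and 5 below, beside 3.27%. In female sham NT-BLs 6 lay above female IVF-BLs, beside 5.06%, and 2 below, beside 3.96%. Male SCNT-BLs had 5 members wholly above male sham NT-BLs, beside 2.95%, and 3 below, beside 3.44%. Female SCNT-BLs had 3 wholly above female sham NT-BLs, beside 4.08%, and 6 below, beside 4.41%.

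**Figure D2:**
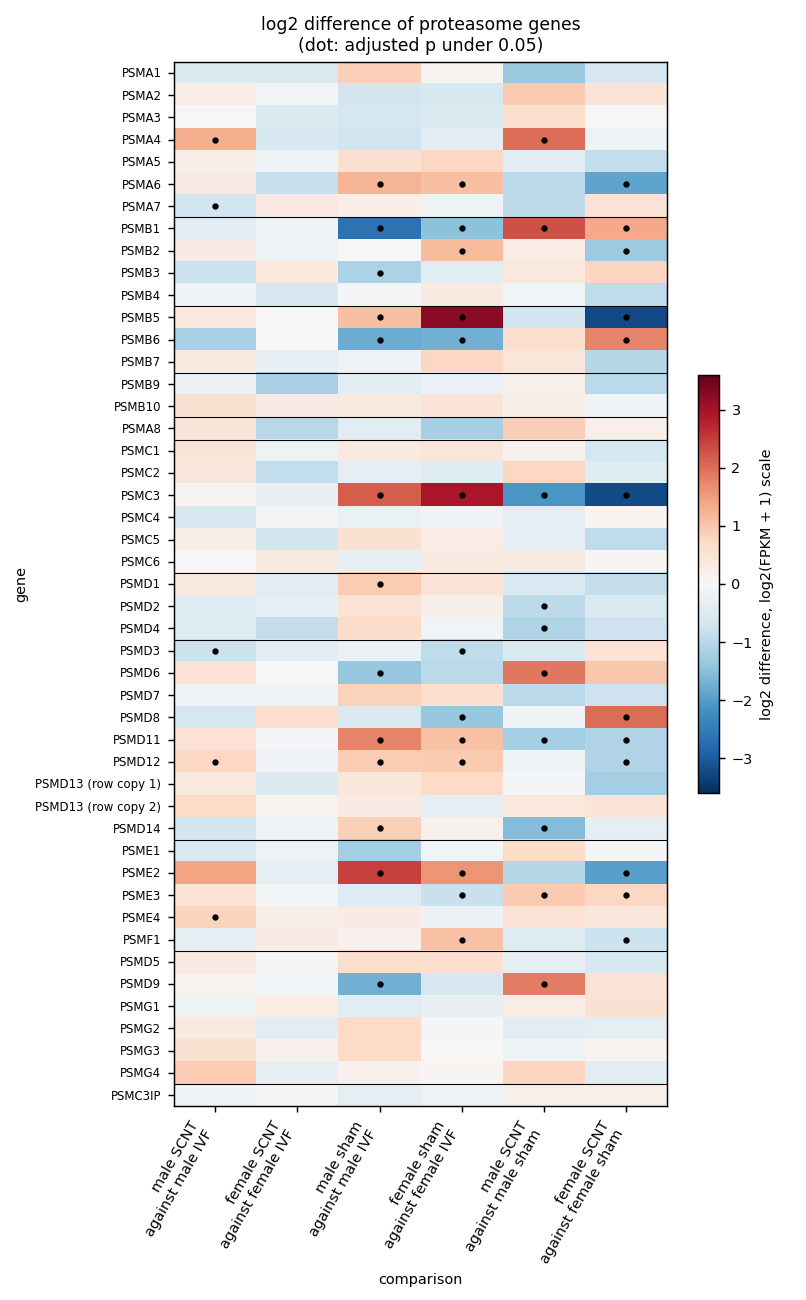
Log2 difference (color, log2(FPKM + 1) scale, red for higher in the group named first) of the 47 tested rows, grouped by class, in the 6 comparisons, with a dot where limma's adjusted p is under 0.05. Both sham columns hold 13 dots each, the male SCNT against IVF column 5 and the female one 0.

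Among the alpha subunits, which form the outer rings and gate the entry to the core, PSMA6 was higher in sham NT-BLs of both sexes. It had 81.2 to 145 FPKM (median 126) in male SCNT-BLs, 82.1 to 381 FPKM (median 258) in male sham NT-BLs and 79.3 to 109.9 FPKM (median 97.1) in male IVF-BLs. Female embryos had 19.6 to 75.2 FPKM (median 43.6) as SCNT-BLs, 146, 197, 136, 138 and 229.7 FPKM as sham NT-BLs and 55.4 to 105 FPKM (median 82.8) as IVF-BLs. One male sham NT-BL lay within the range of the male IVF-BLs, whereas the female sham NT-BLs were all above the other female embryos. The log2 difference of sham NT-BLs from IVF-BLs was 1.23 ± 0.29 (SE, limma adjusted p = 0.00918) in males and 1.07 ± 0.23 (SE, limma adjusted p = 0.00605) in females. Against female sham NT-BLs, female SCNT-BLs differed with a log2 difference of -1.90 ± 0.30 (SE, limma adjusted p = 0.00113).

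PSMA4, another alpha subunit, set male SCNT-BLs apart. It had 29 to 82.7 FPKM (median 49.2) in male SCNT-BLs, 6.10 to 24.3 FPKM (median 11.7) in male sham NT-BLs and 13.9 to 29.5 FPKM (median 20.1) in male IVF-BLs. Only the highest male IVF-BL reached the lowest male SCNT-BL, and no male sham NT-BL did. The log2 difference was 1.28 ± 0.24 (SE, limma adjusted p = 0.00477) from male IVF-BLs and 2.01 ± 0.30 (SE, limma adjusted p = 0.000501) from male sham NT-BLs. Females showed no such rise, with 1.76 to 17.8 FPKM (median 15.2) in SCNT-BLs, 5.47, 12.9, 19.7, 12.5 and 16.2 FPKM in sham NT-BLs and 10.6 to 22.4 FPKM (median 17.4) in IVF-BLs. The SCNT effect on PSMA4 was lower in females than in males with a log2 difference of -1.85 ± 0.49 (SE, limma adjusted p = 0.0485), females minus males. This interaction lay near the threshold: with embryos left out in turn it stayed under 0.05 only without female IVF-BL replicate 4, female SCNT-BL replicates 1, 2, 4 and 6, male IVF-BL replicate 3 and male SCNT-BL replicate 3, and in the other 17 of 24 fits the adjusted p rose to as much as 0.0847. It also missed the threshold with a pseudocount of 0.1 (0.0631), no filter (0.0914) and TPM scaling (0.0581), while the log2 difference ran from -2.00 to -1.31 over all alternatives.

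PSMA7, at the outer ring as well, had 54.9 to 94.1 FPKM (median 72.4) in male SCNT-BLs, 51.7 to 317 FPKM (median 178) in male sham NT-BLs and 85 to 174 FPKM (median 122) in male IVF-BLs. It was lower in male SCNT-BLs than in male IVF-BLs with a log2 difference of -0.70 ± 0.18 (SE, limma adjusted p = 0.0307), though the ranges overlapped. PSMA7 missed the threshold without male IVF-BL replicates 1, 2, 3 and 6 and male SCNT-BL replicates 3, 4, 5 and 6, each left out in turn (adjusted p up to 0.0665), and with no filter (0.0572) or all 6 blastocyst groups in 1 fit (0.227). Female SCNT-BLs had 62.6 to 157 FPKM (median 71.7), female sham NT-BLs had 43.2, 41, 66.2, 54.2 and 141 FPKM and female IVF-BLs had 45 to 101 FPKM (median 67.8), and the log2 difference of SCNT-BLs from IVF-BLs, 0.32 ± 0.27 (SE, limma adjusted p = 0.688), did not pass the test. Of the 7 alpha subunits, PSMA1, PSMA2, PSMA3 and PSMA5 were called in none of the comparisons.

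The structural beta subunits, which line the inner rings without an active site, included PSMB1, with the most negative log2 difference of any member in male sham NT-BLs against IVF-BLs. It had 46.3 to 79.5 FPKM (median 55.7) in male SCNT-BLs, 5.26 to 27.5 FPKM (median 8.53) in male sham NT-BLs and 64 to 84.9 FPKM (median 75.5) in male IVF-BLs. In females it had 45.4 to 65.7 FPKM (median 49) in SCNT-BLs, 33.8, 15, 21.9, 25.4 and 9.56 FPKM in sham NT-BLs and 29.3 to 83.8 FPKM (median 62.1) in IVF-BLs. Every male sham NT-BL lay below every other male embryo, and in females only 1 sham NT-BL reached the IVF-BLs. Sham NT-BLs differed from IVF-BLs with a log2 difference of -2.67 ± 0.35 (SE, limma adjusted p = 0.000147) in males and -1.48 ± 0.33 (SE, limma adjusted p = 0.00718) in females. The log2 difference of SCNT-BLs from sham NT-BLs was 2.29 ± 0.36 (SE, limma adjusted p = 0.000637) in males and 1.36 ± 0.28 (SE, limma adjusted p = 0.0059) in females, and SCNT-BLs and IVF-BLs were not called apart.

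PSMB2, another of these subunits, had 56 to 138 FPKM (median 87.9) in female SCNT-BLs, 244, 193, 239, 279 and 160.0 FPKM in female sham NT-BLs and 56 to 142 FPKM (median 100.2) in female IVF-BLs. All 5 sham NT-BLs were above all other female embryos. The log2 difference was 1.14 ± 0.25 (SE, limma adjusted p = 0.00637) for sham NT-BLs against IVF-BLs and -1.32 ± 0.24 (SE, limma adjusted p = 0.00293) for SCNT-BLs against sham NT-BLs. Male values overlapped, at 138 to 288 FPKM (median 228) in SCNT-BLs, 85.1 to 291 FPKM (median 215) in sham NT-BLs and 142 to 209.8 FPKM (median 183) in IVF-BLs. PSMB3 had 25.8 to 57.1 FPKM (median 33.3) in male SCNT-BLs, 13.5 to 37.5 FPKM (median 28.5) in male sham NT-BLs and 41.8 to 89.1 FPKM (median 59.3) in male IVF-BLs, so that every sham NT-BL was below every IVF-BL. It was lower in male sham NT-BLs than in male IVF-BLs with a log2 difference of -1.14 ± 0.26 (SE, limma adjusted p = 0.00792). In females PSMB3 had 24.5 to 50.0 FPKM (median 36.9) in SCNT-BLs, 28.4, 12.5, 15.5, 20.8 and 27.4 FPKM in sham NT-BLs and 19.4 to 37.3 FPKM (median 26.7) in IVF-BLs and was not called. PSMB4 was called in no comparison.

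The 3 constitutive catalytic subunits went different ways in sham NT-BLs. PSMB5, which carries the chymotrypsin-like site that proteasome inhibitors target, had 2.97 to 34.2 FPKM (median 21.2) in female SCNT-BLs, 132, 134, 169, 244 and 134 FPKM in female sham NT-BLs and 10.4 to 21.3 FPKM (median 16.2) in female IVF-BLs. The sham NT-BLs were far above all other female embryos, and their mean of 163 ± 48.2 FPKM was 10.1 times that of female IVF-BLs, 16.1 ± 3.49 FPKM (SD, n = 5 and 6). The log2 difference was 3.24 ± 0.23 (SE, limma adjusted p = 2.09e-06) for female sham NT-BLs against IVF-BLs and -3.24 ± 0.47 (SE, limma adjusted p = 0.000631) for female SCNT-BLs against sham NT-BLs. In males, PSMB5 had 65.5 to 122 FPKM (median 100.5) in SCNT-BLs, 84.9 to 267 FPKM (median 172) in sham NT-BLs and 42.9 to 131 FPKM (median 79.2) in IVF-BLs, and the groups overlapped. The log2 difference of male sham NT-BLs from IVF-BLs was 1.08 ± 0.32 (SE, limma adjusted p = 0.0385). PSMB5 missed the threshold without male IVF-BL replicates 2, 3, 4 and 5 and male sham NT-BL replicates 1, 2, 4 and 5, each left out in turn (adjusted p up to 0.0915), and with no filter (0.114). The sham effect was larger in females than in males with a log2 difference of 2.16 ± 0.41 (SE, limma adjusted p = 0.00565), and this difference stayed under 0.05 whichever embryo was left out (adjusted p up to 0.0188). Female IVF-BLs lay below all male IVF-BLs in PSMB5, a contrast that crosses the flow cells and was not tested.

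PSMB6, the caspase-like subunit, was low and moved the other way. Its levels were 1.88 to 16.2 FPKM (median 8.55) in male SCNT-BLs, 0.608 to 10.7 FPKM (median 5.52) in male sham NT-BLs and 11.4 to 26.9 FPKM (median 15.6) in male IVF-BLs. Females had 6.94 to 47.5 FPKM (median 15.7) as SCNT-BLs, 7.94, 0.813, 2.47, 12.8 and 2.33 FPKM as sham NT-BLs and 7.99 to 26.1 FPKM (median 13.7) as IVF-BLs. All male sham NT-BLs were below all male IVF-BLs, and the female groups overlapped. Sham NT-BLs were lower than IVF-BLs with a log2 difference of -1.79 ± 0.48 (SE, limma adjusted p = 0.0224) in males and -1.74 ± 0.48 (SE, limma adjusted p = 0.0257) in females, and female SCNT-BLs were higher than female sham NT-BLs with a log2 difference of 1.76 ± 0.55 (SE, limma adjusted p = 0.0492). In the male comparison PSMB6 missed the threshold without male IVF-BL replicate 2 (adjusted p = 0.0561) and with no filter on low genes (adjusted p = 0.0757). In female sham NT-BLs against IVF-BLs PSMB6 missed the threshold without female IVF-BL replicates 2 and 4 and female sham NT-BL replicates 2, 3 and 5, each left out in turn (adjusted p up to 0.0663), and with no filter (0.0866). In female SCNT-BLs against sham NT-BLs PSMB6 missed the threshold without female SCNT-BL replicates 1, 2, 5 and 6 and female sham NT-BL replicates 2, 3 and 5, each left out in turn (adjusted p up to 0.124), and with no filter (0.153), median centring (0.059) or both female SCNT-BL replicates 5 and 6 left out (0.154).

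PSMB7, the trypsin-like subunit, was called in no comparison. It had 143 to 174 FPKM (median 164) in male SCNT-BLs, 74.3 to 181 FPKM (median 117) in male sham NT-BLs and 91.8 to 166 FPKM (median 131) in male IVF-BLs. Female SCNT-BLs had 65.6 to 274 FPKM (median 80.7), female sham NT-BLs 643, 136, 139.6, 173 and 142 FPKM and female IVF-BLs 78.9 to 171 FPKM (median 126), with one high embryo among the SCNT-BLs and one among the sham NT-BLs.

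**Figure D3:**
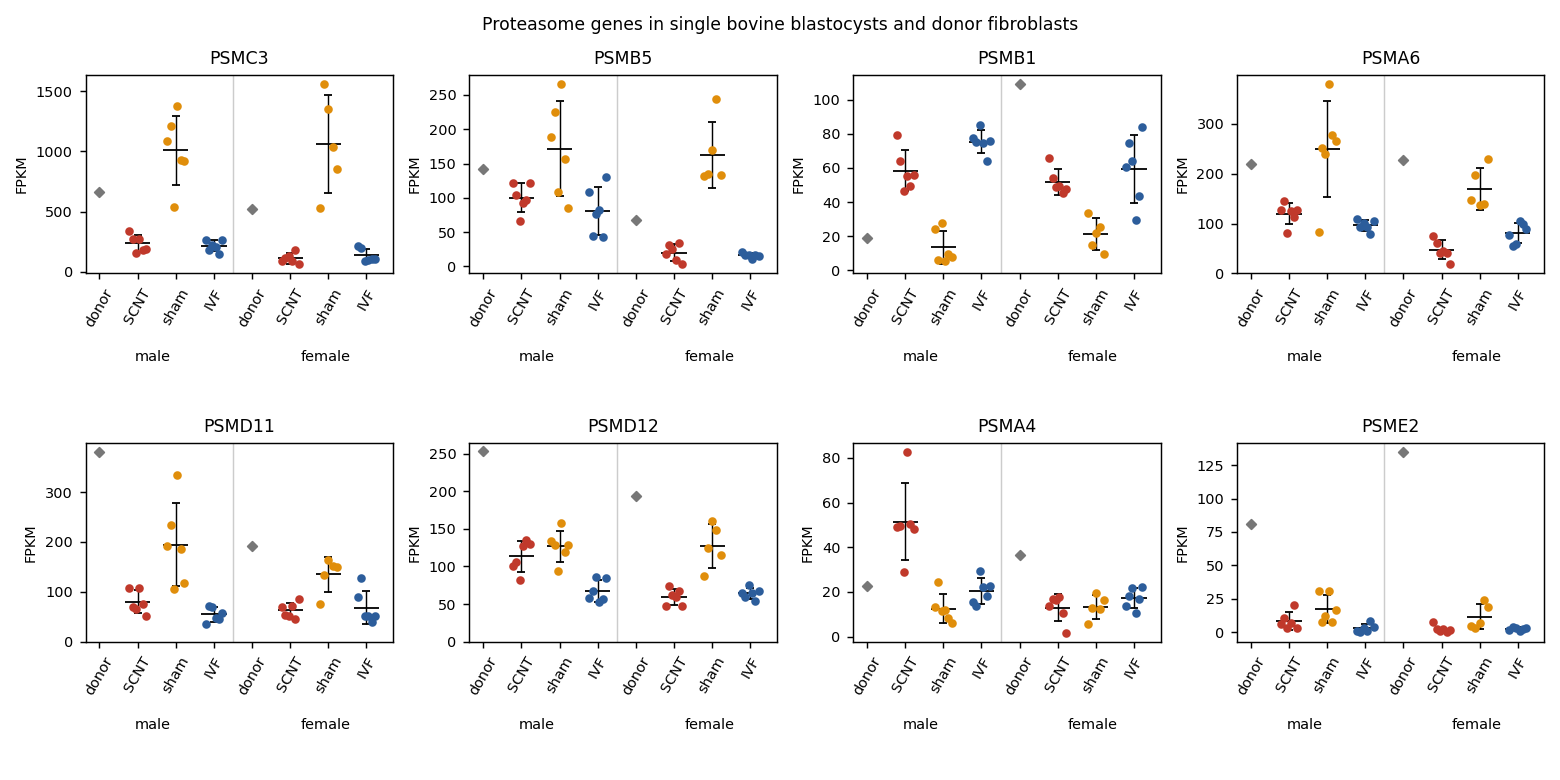
FPKM of 8 members in each embryo (points) and each single donor library (diamonds), males left and females right in each panel, with bars for mean and SD where no embryo is at 0. Sham NT-BLs stand above the other embryos of both sexes in PSMC3 and of females in PSMB5, and below those of males in PSMB1. Male SCNT-BLs stand above male sham NT-BLs in PSMA4.

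Among the ATPases of the base, PSMC3 was the one that set sham NT-BLs apart. Male SCNT-BLs had 159 to 342 FPKM (median 231), male sham NT-BLs 539 to 1374 FPKM (median 1009) and male IVF-BLs 152 to 265 FPKM (median 217). Female SCNT-BLs had 62.5 to 184 FPKM (median 101), female sham NT-BLs 529, 1564, 1349, 1034 and 850.4 FPKM and female IVF-BLs 92.4 to 217 FPKM (median 108). In both sexes every sham NT-BL was above every SCNT-BL and IVF-BL. Means were 1010.1 ± 289 FPKM in male sham NT-BLs and 217 ± 44.2 FPKM in male IVF-BLs (SD, n = 6 each), a ratio of 4.66, and 1065 ± 408 FPKM in female sham NT-BLs and 136 ± 55.5 FPKM in female IVF-BLs (SD, n = 5 and 6), a ratio of 7.81. The log2 difference of sham NT-BLs from IVF-BLs was 2.18 ± 0.24 (SE, limma adjusted p = 3.76e-05) in males and 2.95 ± 0.31 (SE, limma adjusted p = 4.83e-05) in females. SCNT-BLs differed from sham NT-BLs with a log2 difference of -2.09 ± 0.26 (SE, limma adjusted p = 0.000141) in males and -3.23 ± 0.32 (SE, limma adjusted p = 4.07e-05) in females. These calls were kept whichever embryo was left out. The donor fibroblasts, with 659.9 FPKM (male) and 519.6 FPKM (female), were also above all SCNT-BLs of their sex.

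The other 5 ATPases were not called within a sex. PSMC2 had 135 to 204 FPKM (median 176) in male SCNT-BLs, 59.7 to 177 FPKM (median 99) in male sham NT-BLs and 98.1 to 178 FPKM (median 125) in male IVF-BLs. In females it had 39.5 to 106 FPKM (median 79.9) in SCNT-BLs, 83.8, 73.8, 86, 104 and 159 FPKM in sham NT-BLs and 80.2 to 236 FPKM (median 131) in IVF-BLs. The log2 difference of SCNT-BLs from IVF-BLs was 0.41 ± 0.18 in males and -0.90 ± 0.29 in females (SE, limma adjusted p = 0.207 and 0.228), and the effect was lower in females than in males with a log2 difference of -1.31 ± 0.35 (SE, limma adjusted p = 0.0477). This interaction also lay near the threshold: with embryos left out in turn it stayed under 0.05 only without female IVF-BL replicate 4, female SCNT-BL replicates 1, 2 and 4 and male IVF-BL replicate 4, and in the other 19 of 24 fits the adjusted p rose to as much as 0.0866. It missed the threshold with no filter (0.0801) and TPM scaling (0.0507) too, while the log2 difference ran from -1.46 to -1.06 over all alternatives. PSMC6, among the members with the largest positive difference in female SCNT-BLs, had 9.02 to 27.9 FPKM (median 11) in female SCNT-BLs and 8.97 to 11.8 FPKM (median 9.92) in female IVF-BLs, which differed with a log2 difference of 0.36 ± 0.28 (SE, limma adjusted p = 0.662).

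Of the base subunits without ATPase activity, PSMD1 and PSMD2 are the large scaffolds and PSMD4 is a ubiquitin receptor. PSMD1 had 33.4 to 40.9 FPKM (median 39.2) in male SCNT-BLs, 28.6 to 80.0 FPKM (median 70.3) in male sham NT-BLs and 25.1 to 34.6 FPKM (median 30.4) in male IVF-BLs. It was higher in male sham NT-BLs than in IVF-BLs with a log2 difference of 0.91 ± 0.26 (SE, limma adjusted p = 0.0297), with 1 sham NT-BL within the IVF range. PSMD1 missed the threshold without male IVF-BL replicates 1, 2, 5 and 6 and male sham NT-BL replicates 2, 4, 5 and 6, each left out in turn (adjusted p up to 0.0742), and with no filter (0.0617). The female groups were not called, at 15.4 to 22.4 FPKM (median 21.7) in SCNT-BLs, 61.6, 24.5, 30.5, 24.8 and 60.4 FPKM in sham NT-BLs and 12.1 to 40.9 FPKM (median 29.4) in IVF-BLs.

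PSMD2 had 121 to 179.7 FPKM (median 147) in male SCNT-BLs, 204 to 329.7 FPKM (median 308) in male sham NT-BLs and 176 to 220.1 FPKM (median 202) in male IVF-BLs. All male SCNT-BLs were below all male sham NT-BLs with a log2 difference of -0.94 ± 0.18 (SE, limma adjusted p = 0.00323). Female SCNT-BLs had 131 to 192 FPKM (median 146), female sham NT-BLs 309.5, 174, 159, 217 and 240.3 FPKM and female IVF-BLs 168 to 204 FPKM (median 186), and no female comparison was called. PSMD4 had 65.7 to 188 FPKM (median 94.1) in male SCNT-BLs, 119 to 418 FPKM (median 254) in male sham NT-BLs and 96.6 to 212 FPKM (median 153) in male IVF-BLs. It was lower in male SCNT-BLs than in male sham NT-BLs with a log2 difference of -1.10 ± 0.31 (SE, limma adjusted p = 0.0293), with overlapping ranges. PSMD4 missed the threshold without male SCNT-BL replicates 1, 3, 4 and 5 and male sham NT-BL replicates 2, 4 and 5, each left out in turn (adjusted p up to 0.0725), and with no filter (0.0917). In females PSMD4 had 33.7 to 157 FPKM (median 117) in SCNT-BLs, 139, 161, 178, 115 and 222 FPKM in sham NT-BLs and 129.6 to 299.7 FPKM (median 161) in IVF-BLs, and SCNT-BLs differed from IVF-BLs with a log2 difference of -0.86 ± 0.33 (SE, limma adjusted p = 0.347), which did not pass.

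The lid, with 9 rows, held 4 of the 13 calls of sham NT-BLs against IVF-BLs in each sex. PSMD11, a structural lid subunit, had 51.8 to 108 FPKM (median 72.3) in male SCNT-BLs, 105 to 334 FPKM (median 188) in male sham NT-BLs and 35.1 to 72.1 FPKM (median 52.3) in male IVF-BLs. Female SCNT-BLs had 45.5 to 85.5 FPKM (median 61.3), female sham NT-BLs 75.9, 134, 164, 151 and 151 FPKM and female IVF-BLs 38.9 to 128 FPKM (median 51.4). All male sham NT-BLs were above all male IVF-BLs, and the female sham and IVF groups overlapped. Sham NT-BLs were higher than IVF-BLs with a log2 difference of 1.75 ± 0.28 (SE, limma adjusted p = 0.000661) in males and 1.05 ± 0.30 (SE, limma adjusted p = 0.0312) in females. In females PSMD11 missed the threshold without female IVF-BL replicates 3, 4, 5 and 6 and female sham NT-BL replicates 2, 3, 4 and 5, each left out in turn (adjusted p up to 0.0795), and with no filter (0.09) or TPM scaling (0.0805). SCNT-BLs differed from sham NT-BLs with a log2 difference of -1.22 ± 0.28 (SE, limma adjusted p = 0.00897) in males and -1.08 ± 0.25 (SE, limma adjusted p = 0.0109) in females.

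PSMD12, its neighbour in the horseshoe of the lid, had 82.2 to 135 FPKM (median 117) in male SCNT-BLs, 93.3 to 158 FPKM (median 128) in male sham NT-BLs and 52.5 to 85.7 FPKM (median 62.6) in male IVF-BLs. In females it had 47.3 to 73.6 FPKM (median 60.7) in SCNT-BLs, 87, 125, 161, 148 and 115 FPKM in sham NT-BLs and 54.6 to 75.8 FPKM (median 64.5) in IVF-BLs. Sham NT-BLs were above IVF-BLs without overlap in both sexes with a log2 difference of 0.91 ± 0.19 (SE, limma adjusted p = 0.00519) in males and 0.95 ± 0.20 (SE, limma adjusted p = 0.00507) in females. Male SCNT-BLs were also higher than male IVF-BLs with a log2 difference of 0.75 ± 0.18 (SE, limma adjusted p = 0.0188), with overlapping ranges. Female SCNT-BLs lay below all female sham NT-BLs with a log2 difference of -1.07 ± 0.22 (SE, limma adjusted p = 0.00529), and a difference of the SCNT effect between the sexes did not pass the test (log2 difference -0.87 ± 0.24 (SE, limma adjusted p = 0.0559)), though it did with a filter at 1 FPKM and with none.

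PSMD14, the deubiquitinase of the lid, had 8.70 to 30.2 FPKM (median 15) in male SCNT-BLs, 31.2 to 64.4 FPKM (median 51.6) in male sham NT-BLs and 21.5 to 30.4 FPKM (median 27.9) in male IVF-BLs. Every male sham NT-BL was above every other male embryo. The log2 difference was 0.87 ± 0.21 (SE, limma adjusted p = 0.0104) for sham NT-BLs against IVF-BLs and -1.56 ± 0.30 (SE, limma adjusted p = 0.00304) for SCNT-BLs against sham NT-BLs. The female groups overlapped and were not called, at 21.1 to 40.8 FPKM (median 25.7) in SCNT-BLs, 46.3, 25, 35.4, 32.9 and 34.9 FPKM in sham NT-BLs and 17.1 to 39.3 FPKM (median 33) in IVF-BLs.

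PSMD6, a low lid subunit, had 4.69 to 13.7 FPKM (median 10.8) in male SCNT-BLs, 3.09, 0, 2.06, 2.57, 1.42 and 4.18 FPKM in the 6 male sham NT-BLs and 4.60 to 10.4 FPKM (median 6.01) in male IVF-BLs. All male sham NT-BLs were below all other male embryos, 1 of them listed at 0. Sham NT-BLs differed from IVF-BLs with a log2 difference of -1.37 ± 0.41 (SE, limma adjusted p = 0.0376), and SCNT-BLs from sham NT-BLs with a log2 difference of 1.90 ± 0.41 (SE, limma adjusted p = 0.00597). Against IVF-BLs PSMD6 missed the threshold without male IVF-BL replicates 2, 3, 4 and 5 and male sham NT-BL replicates 2, 3, 4 and 5, each left out in turn (adjusted p up to 0.0866), and with no filter (0.0593) or a pseudocount of 0.1 (0.0791). In females PSMD6 had 2.15 to 10.9 FPKM (median 7.87) in SCNT-BLs, 5.56, 8.18, 1.05, 2.91 and 0.448 FPKM in sham NT-BLs and 3.06 to 10.8 FPKM (median 5.94) in IVF-BLs, with no call.

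PSMD3, also of the lid, had 16.1 to 25.5 FPKM (median 21) in male SCNT-BLs, 19.9 to 48.9 FPKM (median 31.3) in male sham NT-BLs and 23 to 41.9 FPKM (median 39.9) in male IVF-BLs. It was lower in male SCNT-BLs than in male IVF-BLs with a log2 difference of -0.78 ± 0.19 (SE, limma adjusted p = 0.02), and only the lowest IVF-BL lay within the SCNT range. With all 6 blastocyst groups in 1 fit this call was lost (adjusted p = 0.067). Female SCNT-BLs had 34.3 to 100.2 FPKM (median 43.2), female sham NT-BLs 54.1, 30.0, 43.5, 20.9 and 27.1 FPKM and female IVF-BLs 45.8 to 90.7 FPKM (median 66.1). Female sham NT-BLs were lower than female IVF-BLs with a log2 difference of -0.92 ± 0.28 (SE, limma adjusted p = 0.0429), with overlap. In that comparison PSMD3 missed the threshold without female IVF-BL replicates 1, 2 and 6 and female sham NT-BL replicates 2, 3, 4 and 5, each left out in turn (adjusted p up to 0.119), and with no filter (0.0978) or median centring (0.0576).

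PSMD8 had 100.2 to 536 FPKM (median 155) in female SCNT-BLs, 64.4, 46.6, 45, 23.2 and 52.7 FPKM in female sham NT-BLs and 76.5 to 166 FPKM (median 116) in female IVF-BLs. The female sham NT-BLs were below all other female embryos with a log2 difference of -1.36 ± 0.26 (SE, limma adjusted p = 0.00278) against IVF-BLs. Female SCNT-BLs were higher than sham NT-BLs with a log2 difference of 2.01 ± 0.38 (SE, limma adjusted p = 0.00363), and against IVF-BLs the log2 difference of 0.64 ± 0.34 (SE, limma adjusted p = 0.51) did not pass. In males PSMD8 had 43 to 109 FPKM (median 51.6) in SCNT-BLs, 37.7 to 103 FPKM (median 74.4) in sham NT-BLs and 70.6 to 157 FPKM (median 95.8) in IVF-BLs. PSMD7 and both rows of PSMD13 were called in no comparison. The 2 rows of PSMD13 may share reads, and their levels are uncertain.

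The activators of the core, which open its gate without ATP, did not move together. PSME2, which pairs with PSME1 in the interferon-induced cap, had 2.86 to 20.1 FPKM (median 6.49) in male SCNT-BLs, 7.34 to 30.6 FPKM (median 13.9) in male sham NT-BLs and 0.357 to 8.63 FPKM (median 1.75) in male IVF-BLs. Female SCNT-BLs had 7.54, 1.93, 0.522, 2.25, 0 and 1.29 FPKM, 1 of them listed at 0, female sham NT-BLs 4.87, 3.09, 6.81, 23.8 and 19.1 FPKM and female IVF-BLs 0.758 to 3.97 FPKM (median 2.40). Sham NT-BLs were higher than IVF-BLs with a log2 difference of 2.47 ± 0.52 (SE, limma adjusted p = 0.00529) in males and 1.60 ± 0.48 (SE, limma adjusted p = 0.0377) in females, with overlapping ranges in both. In females PSME2 missed the threshold without female IVF-BL replicates 1, 3, 4 and 5 and female sham NT-BL replicates 3, 4 and 5, each left out in turn (adjusted p up to 0.11), and with no filter (0.0955) or TPM scaling (0.0548). Female SCNT-BLs were lower than female sham NT-BLs with a log2 difference of -1.94 ± 0.58 (SE, limma adjusted p = 0.0424). In that comparison PSME2 missed the threshold without female SCNT-BL replicates 2, 3, 4, 5 and 6 and female sham NT-BL replicates 3, 4 and 5, each left out in turn (adjusted p up to 0.119), and with no filter (0.127), TPM scaling (0.0562), a pseudocount of 0.1 (0.055) or both female SCNT-BL replicates 5 and 6 left out (0.12). The male SCNT-BLs, with a log2 difference from IVF-BLs of 1.43 ± 0.54 (SE, limma adjusted p = 0.134), did not pass.

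PSME1 was called in no comparison. It had 6.31 to 36.1 FPKM (median 17.3) in male SCNT-BLs, 2.60 to 27.6 FPKM (median 11.9) in male sham NT-BLs and 15.6 to 31.9 FPKM (median 25.4) in male IVF-BLs, and in females 7.39 to 39.1 FPKM (median 15.9) in SCNT-BLs, 8.85, 28.1, 13, 13.1 and 26.2 FPKM in sham NT-BLs and 7.88 to 34.1 FPKM (median 18.6) in IVF-BLs. In ARS-UCD2.0, a later assembly than that of the files, PSME1 and PSME2 lie on chromosome 10 with 1 protein-coding gene between them.

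PSME3, the nuclear activator, was among the highest of this class. Male SCNT-BLs had 133 to 173 FPKM (median 146), male sham NT-BLs 59.5 to 118 FPKM (median 74.5) and male IVF-BLs 90.6 to 126 FPKM (median 105). Female SCNT-BLs had 128 to 175 FPKM (median 137), female sham NT-BLs 97.3, 101, 96.9, 81.3 and 56.3 FPKM and female IVF-BLs 118 to 179 FPKM (median 153). SCNT-BLs of both sexes were above all sham NT-BLs of their sex with a log2 difference of 0.94 ± 0.20 (SE, limma adjusted p = 0.00475) in males and 0.73 ± 0.21 (SE, limma adjusted p = 0.0321) in females. In females PSME3 missed the threshold without female SCNT-BL replicates 1, 2, 3 and 5 and female sham NT-BL replicates 3, 4 and 5, each left out in turn (adjusted p up to 0.0723). Female sham NT-BLs were below all female IVF-BLs with a log2 difference of -0.81 ± 0.20 (SE, limma adjusted p = 0.0147).

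PSME4, an activator linked in mouse to the degradation of acetylated histones, had 53.3 to 83.8 FPKM (median 60.8) in male SCNT-BLs, 34.5 to 60.1 FPKM (median 44.4) in male sham NT-BLs and 29.3 to 44.5 FPKM (median 37.8) in male IVF-BLs. All male SCNT-BLs were above all male IVF-BLs with a log2 difference of 0.81 ± 0.17 (SE, limma adjusted p = 0.00898). The other member without overlap in that comparison was PSME3, also higher in male SCNT-BLs but not called (limma adjusted p = 0.0527). Females had 44.4 to 112 FPKM (median 50.9) as SCNT-BLs, 65, 28.5, 40.7, 49.7 and 40.7 FPKM as sham NT-BLs and 42.9 to 59.8 FPKM (median 51) as IVF-BLs, with no call. PSMF1, an inhibitor of the core, had 35.5 to 57.1 FPKM (median 41.3) in female SCNT-BLs, 62, 110.2, 85, 63.5 and 54.2 FPKM in female sham NT-BLs and 26.8 to 48 FPKM (median 34.4) in female IVF-BLs. All female sham NT-BLs were above all female IVF-BLs with a log2 difference of 1.06 ± 0.23 (SE, limma adjusted p = 0.0068), and female SCNT-BLs were lower than sham NT-BLs with a log2 difference of -0.77 ± 0.23 (SE, limma adjusted p = 0.0403). In this last comparison PSMF1 missed the threshold without female SCNT-BL replicates 1, 2, 3 and 4 and female sham NT-BL replicates 2, 3 and 4, each left out in turn (adjusted p up to 0.111), and with TPM scaling (0.108). Male PSMF1 was not called, at 38.5 to 63.3 FPKM (median 52.9) in SCNT-BLs, 41.3 to 122 FPKM (median 73.8) in sham NT-BLs and 45.7 to 79.6 FPKM (median 64.4) in IVF-BLs.

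Among the assembly factors, which help build the particle and leave it, only PSMD9 was called. This chaperone of the base had 11.5 to 21.9 FPKM (median 14.4) in male SCNT-BLs, 0.704 to 6.24 FPKM (median 5.03) in male sham NT-BLs and 8.83 to 18.3 FPKM (median 13.6) in male IVF-BLs. Every male sham NT-BL was below every other male embryo. Sham NT-BLs differed from IVF-BLs with a log2 difference of -1.73 ± 0.39 (SE, limma adjusted p = 0.0082), and SCNT-BLs from sham NT-BLs with a log2 difference of 1.86 ± 0.39 (SE, limma adjusted p = 0.0049). In females the groups overlapped, at 3.93 to 17.9 FPKM (median 17) in SCNT-BLs, 15.4, 5.89, 11.3, 4.87 and 7.21 FPKM in sham NT-BLs and 2.02 to 51.2 FPKM (median 16.9) in IVF-BLs. PSMG1 to PSMG4, which assemble the core, and PSMD5 were not called. PSMG4 had 1.01, 0, 0.611, 1.52, 0 and 13.4 FPKM in male SCNT-BLs and 0, 0, 0.531, 0, 0.628 and 0 FPKM in male IVF-BLs, a log2 difference of 0.93 ± 0.51 (SE, limma adjusted p = 0.323) with most embryos at or near 0. PSMC3IP, which is not a subunit, was not called either.

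The inducible catalytic subunits were low in most blastocysts, and PSMB8 and PSMB10 were higher in both donor fibroblast libraries than in any blastocyst. PSMB8 had 22.4 FPKM in the male and 32.7 FPKM in the female donor, whereas 28 of the 35 blastocysts were listed at 0 and the highest had 0.276 FPKM. PSMB9 had 8.82 and 4.83 FPKM in the donors. Male blastocysts had 0 to 4.07 FPKM (median 1.08) as SCNT-BLs, 0 to 6.23 FPKM (median 0) as sham NT-BLs and 0 to 12.2 FPKM (median 0.342) as IVF-BLs. Female blastocysts had 0 to 1.82 FPKM (median 0) as SCNT-BLs, 0, 2.24, 2.46, 0 and 9.58 FPKM as sham NT-BLs and 0 to 5.15 FPKM (median 2.74) as IVF-BLs. It was scattered among embryos, with 15 of 35 listed at 0, and no comparison was called.

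PSMB10 had 9.96 and 20.2 FPKM in the donors and at most 5.41 FPKM in a blastocyst, with 12 of 35 listed at 0. Male SCNT-BLs had 0 to 5.41 FPKM (median 0.152), male sham NT-BLs 0 to 2.51 FPKM (median 0.202) and male IVF-BLs 0 to 0.269 FPKM (median 0.0726). Female SCNT-BLs had 0 to 2.55 FPKM (median 0.548), female sham NT-BLs 0, 4.41, 0.575, 0 and 1.31 FPKM and female IVF-BLs 0 to 1.21 FPKM (median 0.274). PSMB8, PSMB9 and PSMB10 together made up 14.1% of the summed FPKM of the 6 catalytic subunits in the male and 14.2% in the female donor. In blastocysts this share was at most 2.23% in male SCNT-BLs, 2.88% in male sham NT-BLs and 4.71% in male IVF-BLs. Its highest values in females were 3.44% for SCNT-BLs, 3.77% for sham NT-BLs and 3.96% for IVF-BLs.

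PSMA8 and PSMB11 are core subunits with a restricted range of tissues in mammals, PSMA8 known from the germ line of the testis and PSMB11 from the thymus. PSMA8 was listed at 0 in both donors and in 12 of 35 blastocysts. It reached 0 to 9.37 FPKM (median 0.779) in male SCNT-BLs, 0 to 0.707 FPKM (median 0.132) in male sham NT-BLs and 0 to 8.87 FPKM (median 0.197) in male IVF-BLs. Female SCNT-BLs had 0 to 6.08 FPKM (median 0.560), female sham NT-BLs 0, 0.443, 2.42, 0 and 1.84 FPKM and female IVF-BLs 0 to 17.2 FPKM (median 3.26), so a few embryos held most of the signal in each group. Female SCNT-BLs were not called apart from female IVF-BLs (log2 difference -0.996, limma adjusted p = 0.602). PSMB11 was listed at 0 in 34 of 35 blastocysts and in both donors.

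Donor fibroblasts were set beside the SCNT-BLs made from their line, as values without error or test, since each donor is 1 library. A member was singled out where the donor lay outside the range of all 6 SCNT-BLs by more than 2-fold. In males 11 of 48 members were higher and 3 lower in the donor by this rule, beside 22.2% and 13.5% of all genes. In females 14 were higher and 3 lower, of which 1 was PSMC3IP and 2 were subunits, beside 22.5% and 13.5%. Higher in both donors were PSMA3, PSMB8, PSMB9, PSMD11 and PSME2, and lower in both were PSME3 and PSME4.

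PSMA3, an alpha subunit, had 99.5 FPKM in the male donor against 0.911 to 13.6 FPKM (median 7.27) in male SCNT-BLs, and 175 FPKM in the female donor against 2.51 to 20.5 FPKM (median 5.65) in female SCNT-BLs. Sham NT-BLs and IVF-BLs were as low, with 0.501 to 12.3 FPKM (median 3.69) in male sham NT-BLs and 3.58 to 11.8 FPKM (median 5.86) in male IVF-BLs. PSME2 had 81.3 and 135 FPKM in the male and female donor and at most 20.1 and 7.54 FPKM in male and female SCNT-BLs. PSME1 went the same way in females only by this rule, with 164 FPKM in the donor and at most 39.1 FPKM in SCNT-BLs. The other activators were lower in fibroblasts. PSME3 had 37.1 and 46 FPKM in the donors, against no less than 133 FPKM in the male and 128 FPKM in the female SCNT-BLs. PSME4 had 11.8 and 12.7 FPKM in the donors, against no less than 53.3 and 44.4 FPKM in male and female SCNT-BLs.

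**Figure D4:**
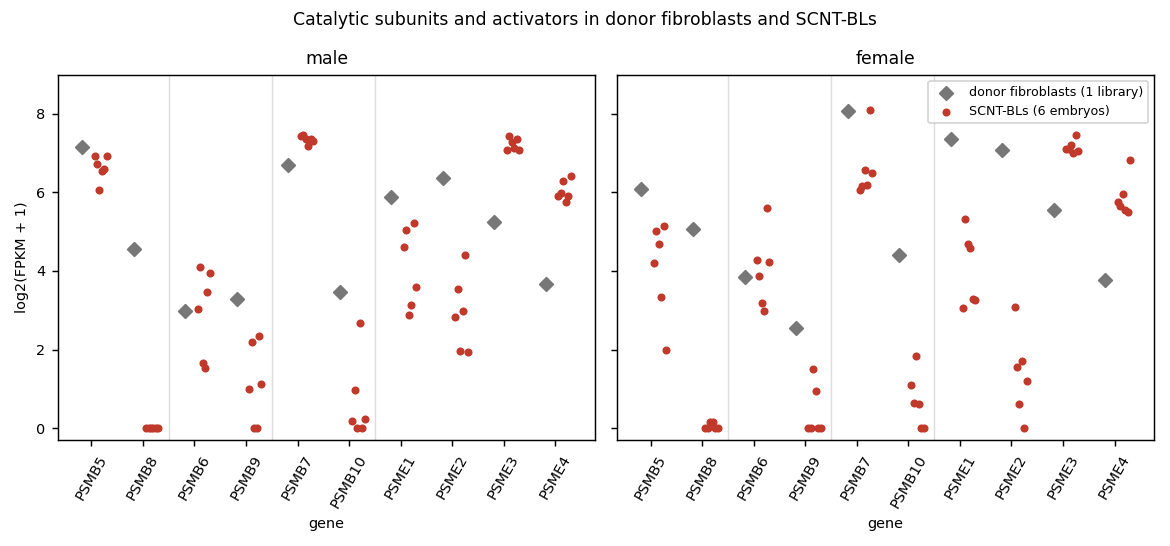
Level on the log2(FPKM + 1) scale of the constitutive and inducible catalytic subunits (each pair side by side) and of the activators PSME1 to PSME4 in the single donor library (grey diamonds) and in 6 SCNT-BLs (red points) of each sex. PSMB8, PSMB9 and PSME2 are higher and PSME3 and PSME4 lower in both donors than in all SCNT-BLs of their sex by more than 2-fold. PSMB5, PSMB10 and PSME1 are also above all SCNT-BLs in both sexes, but not by more than 2-fold in both.

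Other genes of the pathway were taken from a list of ubiquitin and proteasome partners, of which 28 were tested. Against IVF-BLs, 4 were higher and 2 lower in male SCNT-BLs, 0 and 0 in female SCNT-BLs, 4 and 6 in male sham NT-BLs and 4 and 5 in female sham NT-BLs, beside 6.98%, 0.321%, 12.1% and 13.5% of all genes in either direction. Against sham NT-BLs, 3 were higher and 5 lower in male SCNT-BLs, and 5 higher and 3 lower in female SCNT-BLs, beside 11.8% and 11.3%. NFE2L1 encodes the transcription factor that raises proteasome genes when the proteasome is inhibited. It had 38 to 78.3 FPKM (median 47.7) in male SCNT-BLs, 52.4 to 137 FPKM (median 98.6) in male sham NT-BLs and 31.2 to 63.1 FPKM (median 47) in male IVF-BLs. In females it had 20.8 to 58.8 FPKM (median 22) in SCNT-BLs, 57.8, 69.8, 87, 77.9 and 94.8 FPKM in sham NT-BLs and 23.4 to 38.3 FPKM (median 27.1) in IVF-BLs. Sham NT-BLs were higher than IVF-BLs with a log2 difference of 1.03 ± 0.25 (SE, limma adjusted p = 0.0139) in males and 1.41 ± 0.20 (SE, limma adjusted p = 0.000369) in females, and SCNT-BLs differed from sham NT-BLs with a log2 difference of -0.82 ± 0.25 (SE, limma adjusted p = 0.044) and -1.53 ± 0.28 (SE, limma adjusted p = 0.0026) in males and females.

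RAD23B, which carries ubiquitinated proteins to the proteasome, had 91.4 to 299 FPKM (median 252) in male SCNT-BLs, 21 to 67.5 FPKM (median 31.3) in male sham NT-BLs and 140.2 to 365 FPKM (median 237) in male IVF-BLs. In females it had 182 to 312 FPKM (median 207) in SCNT-BLs, 91, 33, 29.5, 51.3 and 37.5 FPKM in sham NT-BLs and 47.4 to 387 FPKM (median 175) in IVF-BLs. Sham NT-BLs were lower than IVF-BLs with a log2 difference of -2.73 ± 0.29 (SE, limma adjusted p = 3.76e-05) in males and -1.70 ± 0.46 (SE, limma adjusted p = 0.0219) in females. Male sham NT-BLs did not overlap with the other males. Of the antigen presentation genes listed with the inducible subunits, limma called 0 of 11 rows in SCNT-BLs against IVF-BLs of either sex and in male sham NT-BLs. The shares over all genes were 6.98% in male SCNT-BLs, 0.321% in female SCNT-BLs and 12.1% in male sham NT-BLs. With so few rows, 0 calls are not read as a lack of change.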

How the data were processed

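The authors amplified poly-A RNA of each blastocyst or donor sample (pico-profiling), aligned reads to UMD3.1 with TopHat and deposited 1 table of FPKM estimated with Cufflinks. Trim Galore and Cuffdiff are named in the submitters' notes too, with no version. FPKM hold no read counts, so count models and counting errors were not used. Columns were mapped to samples by the labels in their names, and 0 columns were left unmapped.

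Differences were tested with limma 3.58.1 (R 4.3.3, lmFit and eBayes with trend) on log2(FPKM + 1) for genes whose mean over the embryos compared was above 0.1 FPKM. P-values were adjusted over all of these genes by Benjamini-Hochberg, with a threshold of 0.05. The method was tested on values simulated from the mean and spread of IVF-BLs. These hold no depth difference between groups, so the test does not cover that feature. Each blastocyst is 1 replicate, and p-values measure the spread between these embryos. Alternatives were a pseudocount of 0.1, a filter at 1 FPKM or none, TPM scaling, median centring, 1 fit of all 6 blastocyst groups, a replicate block and leaving out each embryo. The members and lists were chosen with earlier results of these data known. Every member may be named, and per-embryo values were given for members called in any comparison, catalytic subunits, PSME1, PSME2 and the 4 members with the largest SCNT difference per direction and sex. Genes from outside the members came from the list of partners and the list of antigen presentation genes, with those named chosen after their values were seen. ARS-UCD2.0 was used for names and neighbours only, and all 48 symbols matched. A planned search of promoter sequences was not run, since sequences were not used here. The antigen presentation genes in female sham NT-BLs are not reported here.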

Additional observations from a re-analysis of the deposited data

Results flagged for a closer look

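Within groups, single embryos stood far from the rest in 22 of the 198 member and sum values looked at, where chance alone gives about 1 in 20 for values spread normally, which genes near 0 are not. Female SCNT-BL replicate 5 was high in PSMB6 (47.5 FPKM), PSMB7 (274 FPKM), PSMD8 (536 FPKM) and the sum of all members (3150 FPKM). Female SCNT-BL replicate 6 was high in PSMD2 (192 FPKM), PSMD3 (100 FPKM) and PSME4 (112 FPKM), and replicate 1 in PSME2 (7.54 FPKM). These 2 embryos, replicates 5 and 6, also stood apart over all genes. Their libraries were the shallowest of the female SCNT-BLs by the estimate from FPKM, with relative depths of 0.369 and 0.514, against 0.933 to 1.18 in replicates 1 to 4. The part of depth in their values was not tested. Female sham NT-BL replicate 1 was high in PSMB7 (643 FPKM), and replicate 5 in PSMA7 (141 FPKM) and PSMB9 (9.58 FPKM). PSMD4 was high in female IVF-BL replicate 2 (300 FPKM), and PSMD3 was low in male IVF-BL replicate 5 (23.0 FPKM).

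The other values came from genes near 0 in most embryos. PSMA8 had 8.87 FPKM in male IVF-BL replicate 1, 9.37 FPKM in male SCNT-BL replicate 6 and 17.2 FPKM in female IVF-BL replicate 2. PSMB10 had 5.41 FPKM in male SCNT-BL replicate 4, 2.51 FPKM in male sham NT-BL replicate 3 and 1.21 FPKM in female IVF-BL replicate 1. PSMG4 had 13.4 FPKM in male SCNT-BL replicate 6, 0.779 FPKM in female SCNT-BL replicate 3 and, among female sham NT-BLs, 5.2 FPKM in replicate 4.

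Differences from IVF-BLs that differed between the sexes by limma were those of SCNT-BLs in PSMA4 (log2 difference of effects -1.85, females minus males) and PSMC2 (-1.31), and that of sham NT-BLs in PSMB5 (2.16).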

How the results depend on the processing

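Called members numbered 8 instead of 5 in male SCNT-BLs against IVF-BLs with a filter at 1 FPKM and 3 with all 6 blastocyst groups in 1 fit. The interaction of sex with SCNT, called for PSMA4 and PSMC2, had 1 call with a pseudocount of 0.1 (PSMC2), 1 with no filter (PSMD12 in place of both) and 0 with TPM scaling. Without female SCNT-BL replicates 5 and 6, an alternative chosen after seeing the data, it was 0, and PSMA7 in female SCNT-BLs against IVF-BLs reversed to -0.0439. With embryos left out in turn, calls ran from 4 to 7 (male) and 0 to 0 (female) for SCNT against IVF, 9 to 14 and 9 to 13 for sham against IVF, 9 to 12 and 8 to 12 for SCNT against sham, and 0 to 3 and 1 to 1 for the interactions of sex with SCNT and with sham. Of 1321 alternative values of single members, 1136 kept direction and side of the threshold, 180 lost and 4 gained a call, and 1 reversed. TPM scaling moved the median over all genes to -0.29 in female sham NT-BLs against IVF-BLs. The cause of these changes was not tested.

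Replicate numbers are shared across groups but did not pair embryos: same-numbered deviations correlated at -0.239 to 0.077. With a replicate block, calls were 3 and 0 for SCNT against IVF in males and females, 10 and 8 for sham against IVF, 10 and 8 for SCNT against sham, and 0 for both interactions. Calls that only the block ended were PSMB5 in the interaction of sex with sham (adjusted p = 0.073), PSMD12 in male SCNT-BLs against IVF-BLs (0.0593) and PSME3 in female sham NT-BLs against IVF-BLs (0.0766).

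FPKM without counts give no depth per value. Low members such as PSMB9, PSMG3 and PSMG4 scatter widely between embryos, so a missing call there is not read as a lack of change.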
